A study of Mus musculus with 4 samples.

Results

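Lung fibroblast identity genes were described across bulk RNA sequencing of mouse lung tumours. The set was chosen by name and held 10 of the 24391 genes listed in each deposited count file. Tcf21, Wnt2, Inmt, Npnt and Pdgfra were taken as genes of alveolar fibroblasts, and Dcn, Lum, Pi16, Dpt and Mfap5 as genes of adventitial fibroblasts. All 10 had reads in every sample and passed the filter on low counts, so all 10 were tested. Tumours labelled K-Ras came from mice with a K-RasLSL-G12D allele, an oncogenic K-Ras that stays silent until Cre recombinase removes a stop cassette. Tumours labelled K-Ras Mll4-/- came from mice with the same allele and floxed Mll4 (now Kmt2d, a histone methyltransferase acting mainly at enhancers), so both groups carried the K-Ras mutation. Each group held 2 samples. The labels give neither the source of Cre, the cells it reached, the age of the mice, nor whether the samples came from different mice, so the p-values measure only the spread between these samples. Each tumour was digested to single cells and depleted of leukocytes bearing CD45 before RNA extraction. No step selected or removed fibroblasts.

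Fibroblasts of the lung fall into spatially distinct kinds. Alveolar fibroblasts lie in the walls of the air sacs, express the PDGF receptor Pdgfra and the transcription factor Tcf21, and support the neighbouring epithelium. Adventitial fibroblasts lie in the cuffs around large vessels and airways and secrete the fibrillar and proteoglycan matrix found there, with Pi16 and Dpt among their usual markers. The split is not strict: Pdgfra and Dcn are found in fibroblasts of many kinds, and Npnt is also made by lung epithelium.

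Sequence before the annotated start is shown for 3 members, namely the alveolar genes Pdgfra and Inmt and the adventitial gene Dpt, which were the 2 alveolar genes and the adventitial gene with the smallest p-values. RefSeq promoter entries (GRCm38.p6) matched 7 of the 10 members by symbol. Each line gives the 250 bases before the start, written 5′ to 3′ on the strand of the gene. Capitals mark matches to 3 motifs searched on both strands: CAGCTG, an E-box of the kind bound by basic helix-loop-helix factors such as Tcf21, TATAAA, the TATA box, and TGANTCA, the AP-1 site. No match overlapped another.
Pdgfra (chr5:75152001-75152250, plus strand): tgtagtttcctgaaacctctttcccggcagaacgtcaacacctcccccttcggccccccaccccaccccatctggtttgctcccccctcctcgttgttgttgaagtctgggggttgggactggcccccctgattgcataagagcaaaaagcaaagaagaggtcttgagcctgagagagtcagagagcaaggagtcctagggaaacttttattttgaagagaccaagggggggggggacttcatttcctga
Inmt (chr6:55174991-55175240, minus strand): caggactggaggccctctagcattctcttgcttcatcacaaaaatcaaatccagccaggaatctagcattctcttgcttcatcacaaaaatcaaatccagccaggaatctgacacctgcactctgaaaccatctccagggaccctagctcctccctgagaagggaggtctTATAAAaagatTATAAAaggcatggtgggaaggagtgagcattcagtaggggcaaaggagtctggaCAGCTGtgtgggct
Dpt (chr1:164796413-164796662, plus strand): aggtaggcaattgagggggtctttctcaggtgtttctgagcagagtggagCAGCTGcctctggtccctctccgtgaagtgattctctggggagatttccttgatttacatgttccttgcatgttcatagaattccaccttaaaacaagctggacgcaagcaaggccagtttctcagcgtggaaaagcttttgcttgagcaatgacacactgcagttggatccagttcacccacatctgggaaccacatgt
The Inmt stretch held 2 TATAAA matches, starting 80 and 69 bases before the annotated start, and 1 CAGCTG match at 14 bases. It also held an exact repeat of 46 bases, with copies starting 235 and 189 bases before the start. Dpt held 1 CAGCTG match, 200 bases before the start, and the Pdgfra stretch held none of the 3 motifs. The stretches of the other members with an entry, namely Tcf21, Wnt2, Npnt and Pi16, also held none of the 3 motifs. Over all 32851 promoter entries of this length, 13.0% held CAGCTG, 12.4% held TATAAA and 6.75% held TGANTCA. GC content was 54.4% for Pdgfra, 48.0% for Inmt and 48.8% for Dpt, against a median of 52.4% over all entries. These matches describe letters in a window and were not tested for function.

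The libraries held 26683033 to 36677987 gene-assigned reads, so that 3 reads, taken as the smallest count showing a transcript, came to 0.0818 to 0.112 CPM (counts scaled to a common library size). Floors and counting intervals cover counting error only. Kmt2d was at 395 and 526 CPM in the K-Ras samples and at 367 and 317 CPM in the K-Ras Mll4-/- samples (log2 fold change -0.43, SE 0.21, edgeR adjusted p = 0.302), and a count over the whole gene cannot show which exons were lost. The surfactant gene Sftpc was at 5748 CPM or more in every sample. Collagen and other general fibroblast genes stood apart in K-Ras replicate 1, which was highest of the 4 samples for 13 of 15 of them, and airway genes stood apart in K-Ras replicate 2. Expression below is given as CPM scaled with edgeR TMM factors, and fold changes are K-Ras Mll4-/- over K-Ras.

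Of the 10 genes, 8 had both K-Ras Mll4-/- samples below both K-Ras samples, 0 had both above, and 2 (Lum and Pi16) overlapped. Among all 16001 genes tested, the groups were apart in the lower direction for 28.5% and in the higher direction for 29.9%. Set against K-Ras replicate 2 alone, both K-Ras Mll4-/- samples were lower for 9 of 10, against 41.2% of all genes. The median log2 fold change of the members was -0.64, against -0.01 over all genes tested. None was called by the edgeR quasi-likelihood test at a Benjamini-Hochberg adjusted p under 0.05, a rule that called 0.0375% of all genes. At an unadjusted p under 0.05, 4 of 10 were lower (Pdgfra, Inmt, Dpt and Dcn) and 0 higher, against 10.4% of all genes lower and 21.8% in either direction. DESeq2 and the edgeR likelihood ratio test each called 2 of the 10 lower (Pdgfra and Inmt), against 4.98% and 4.54% of all genes, and limma-voom called 0, with 4 at an unadjusted p under 0.05, against 20.2% of all genes. These are bulk samples, so fewer fibroblasts and less RNA of these genes per fibroblast cannot be told apart.

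**Figure D1:**
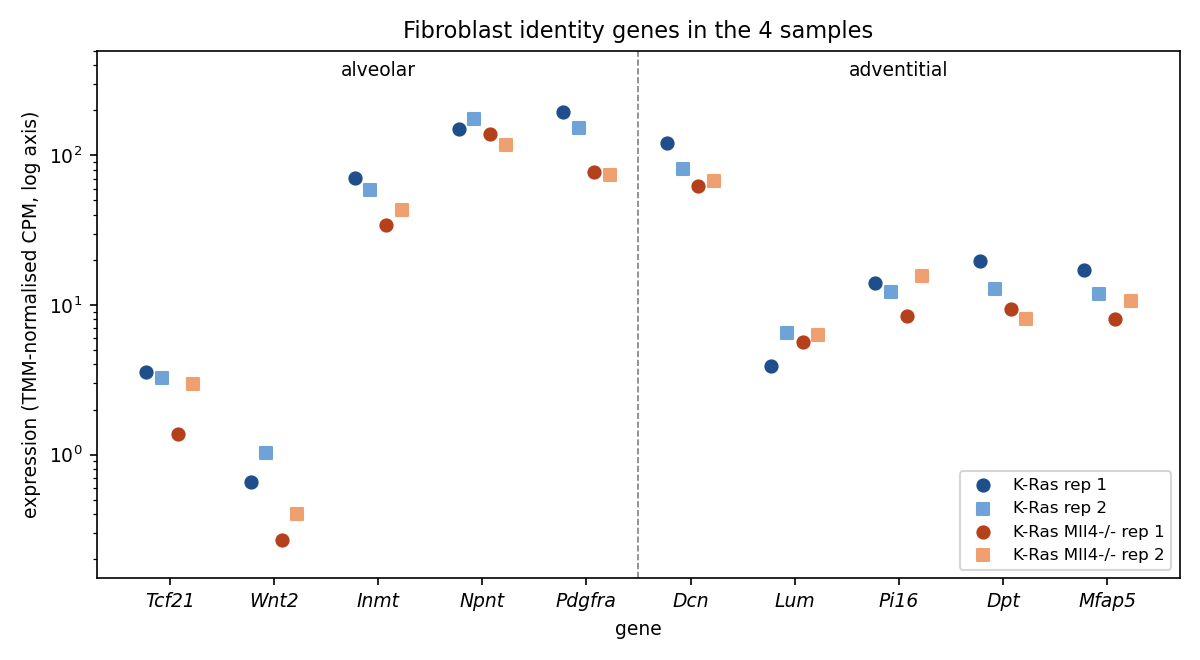
TMM-normalised CPM (log axis) of the 10 fibroblast genes, 1 point per sample, with blue points for K-Ras and red or orange points for K-Ras Mll4-/-. Both red or orange points lie below both blue points for 8 genes, while the groups overlap for Lum and Pi16.

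Pdgfra, the receptor through which PDGF-A drives fibroblast growth, had the smallest p-value of the 10. It was at 196 and 153 CPM in the K-Ras samples and at 77.7 and 74.1 CPM in the K-Ras Mll4-/- samples. Both K-Ras Mll4-/- samples were close together and lay far below the lower K-Ras sample. The mean was 175 ± 30.3 CPM in K-Ras and 75.9 ± 2.57 CPM in K-Ras Mll4-/- (SD, n = 2 each), so the fitted level was 43.4% of that in K-Ras. On the log2 scale this was a change of -1.20 (SE 0.17, edgeR adjusted p = 0.135), at place 131 of 16001 by p-value. DESeq2 gave an adjusted p of 1.49e-05 and the likelihood ratio test 3.51e-05, within a range of 1.49e-05 to 0.754 over all alternatives run. With each sample left out in turn the fold change stayed between -1.39 and -1.01.

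Inmt, an indolethylamine N-methyltransferase abundant in lung mesenchyme, followed the same order. It was at 70.4 and 58.7 CPM in K-Ras and at 34.1 and 43.1 CPM in K-Ras Mll4-/-. The groups were apart (log2 fold change -0.74, SE 0.18, edgeR adjusted p = 0.168). It was called by DESeq2 (adjusted p = 0.0415) and by the likelihood ratio test (adjusted p = 0.0403), within a range up to 0.754 over the alternatives.

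Tcf21, the helix-loop-helix transcription factor of lung mesenchyme, was low in every sample. It was at 3.56 and 3.24 CPM in K-Ras and at 1.37 and 2.98 CPM in K-Ras Mll4-/-, from 36 to 117 reads. The groups were apart by a narrow margin, between replicate 2 of each group, and K-Ras Mll4-/- replicate 1 lay well below the other 3 samples. The log2 fold change was -0.64 (SE 0.46, edgeR adjusted p = 0.459), and it was -0.19 without that sample and -1.32 without K-Ras Mll4-/- replicate 2.

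Wnt2, a ligand that promotes lung progenitor growth, was close to the limit of detection. It had 20 and 37 reads in K-Ras and 7 and 13 reads in K-Ras Mll4-/-, or 0.654 and 1.02 CPM against 0.267 and 0.403 CPM. The exact Poisson 95% intervals of the nearest samples overlapped, at 0.400 to 1.01 CPM in K-Ras replicate 1 and 0.215 to 0.690 CPM in K-Ras Mll4-/- replicate 2. Its log2 fold change of -1.31 carried an SE of 0.52 (edgeR adjusted p = 0.243), so the most negative value of the set was also the least precise.

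Npnt, the matrix protein nephronectin, which binds integrin alpha8 beta1, differed least among the alveolar genes. It was at 149 and 176 CPM in K-Ras and at 140 and 117 CPM in K-Ras Mll4-/-. The groups were apart by less than the gap between the K-Ras samples (log2 fold change -0.34, SE 0.17, edgeR adjusted p = 0.302). Itga8, which encodes the alpha8 chain of that integrin, overlapped between the groups (log2 fold change -0.27, SE 0.22, edgeR adjusted p = 0.511).

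Among the adventitial genes, Dcn encodes decorin, a small leucine-rich proteoglycan that binds collagen fibrils. It was at 120 and 81.5 CPM in K-Ras and at 62.6 and 67.1 CPM in K-Ras Mll4-/-. K-Ras replicate 1 was the high sample, and the difference (log2 -0.64, SE 0.22, edgeR adjusted p = 0.214) shrank to -0.33 without it.

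Dpt, which encodes dermatopontin, a decorin-binding matrix protein, was at 19.6 and 12.8 CPM in K-Ras and at 9.45 and 8.04 CPM in K-Ras Mll4-/-. The groups were apart, again with K-Ras replicate 1 highest. Its log2 fold change was -0.89 (SE 0.28, edgeR adjusted p = 0.192), and -0.55 without that sample.

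Mfap5, a microfibril-associated protein that binds fibrillin, was at 17.2 and 11.8 CPM in K-Ras and at 7.998 and 10.67 CPM in K-Ras Mll4-/-. The margin between the nearest samples was narrow. The log2 fold change was -0.63 (SE 0.29, edgeR adjusted p = 0.274), and -0.34 without K-Ras replicate 1.

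Lum and Pi16 did not separate the groups. Lum encodes lumican, another small leucine-rich proteoglycan, whose gene is the next protein-coding gene to Dcn in the RefSeq annotation. It was at 3.92 and 6.53 CPM in K-Ras and at 5.67 and 6.27 CPM in K-Ras Mll4-/-. K-Ras replicate 1, the highest sample for Dcn, was the lowest for Lum. The log2 fold change of Lum was 0.19 (SE 0.34, edgeR adjusted p = 0.767), and it turned to -0.13 without that sample. Taken as a difference within a sample, log2 Lum minus log2 Dcn was -4.93 and -3.64 in K-Ras and -3.46 and -3.42 in K-Ras Mll4-/-.

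Pi16, a secreted peptidase inhibitor family protein that marks adventitial fibroblasts, was at 13.96 and 12.18 CPM in K-Ras. It was at 8.49 and 15.6 CPM in K-Ras Mll4-/-, so that group held both the lowest and the highest sample. The log2 fold change was -0.12 (SE 0.34, edgeR adjusted p = 0.866), and without K-Ras Mll4-/- replicate 1 it was 0.25. Those samples had 223 and 502 reads, and their exact Poisson 95% intervals, 7.41 to 9.68 CPM and 14.2 to 17.0 CPM, did not overlap.

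**Figure D2:**
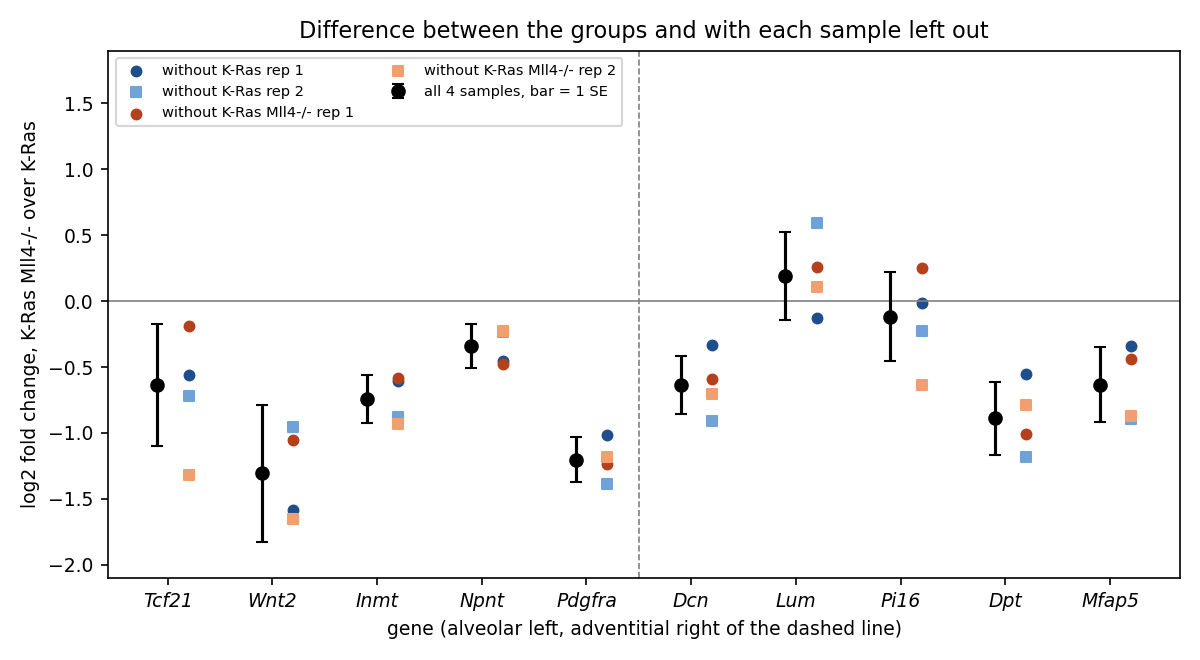
Log2 fold change of each gene, K-Ras Mll4-/- over K-Ras, from the edgeR fit to all 4 samples (black, bar = 1 SE) and with each sample left out (coloured points). Pdgfra stays between -1.39 and -1.01, while Lum and Pi16 lie on both sides of 0.

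The strand setting of the counting is not given in the sources used here. In the GENCODE M21 annotation, Tcf21, Npnt, Pdgfra, Pi16 and Dpt each overlap a gene on the opposite strand. Pdgfra also overlaps the microRNA gene Mir7025 on its own strand. Whether these partners were in the annotation used for counting is not known. Whether reads of the shared stretches were counted for the member, the partner or neither was not tested.

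Levels were compared between genes as CPM per kilobase of the longest GENCODE M21 transcript. Which transcripts were present was not tested, so the order between genes depends on that choice of length. In K-Ras tumours Inmt was highest, at 59.9 ± 7.65, followed by Npnt at 35.2 ± 4.15, Pdgfra at 25.6 ± 4.43 and Dcn at 21.5 ± 5.84 CPM per kilobase (SD, n = 2). The samples of Pdgfra and Dcn overlapped. Next came Dpt at 9.40 ± 2.78, Mfap5 at 5.82 ± 1.53 and Pi16 at 3.27 ± 0.317, then Lum at 2.14 ± 0.753 and Tcf21 at 1.902 ± 0.129, which overlapped each other. Wnt2 was lowest, at 0.372 ± 0.116. In K-Ras Mll4-/- tumours the order was the same except that Dcn, at 13.8 ± 0.683, stood above Pdgfra, at 11.1 ± 0.376 CPM per kilobase (SD, n = 2), and their samples did not overlap. Mfap5 and Pi16 overlapped there, as did Pi16 and Lum. Within each sample, log2 Pdgfra minus log2 Dcn (from CPM) was 0.71 and 0.91 in K-Ras and 0.31 and 0.14 in K-Ras Mll4-/-.

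The contrast between the kinds of fibroblast was taken from the mean log2 fold change of each list and is given with no test, since the members were chosen by name with earlier results known. All 5 alveolar genes had the groups apart in the lower direction, against 28.5% of all genes, with a mean of -0.85 and a median of -0.74. Of the adventitial genes, 3 of 5 did, with a mean of -0.42 and a median of -0.63. The lists thus lay closer by median than by mean. Lum and Pi16 lift the adventitial mean, and Wnt2 and Pdgfra lower the alveolar mean. The mean log2 CPM of the alveolar genes was 4.45 and 4.47 in K-Ras and 3.43 and 3.77 in K-Ras Mll4-/-. For the adventitial genes it was 4.22 and 3.98 in K-Ras and 3.56 and 3.82 in K-Ras Mll4-/-. Subtracted within each sample, alveolar minus adventitial came to 0.23 and 0.49 in K-Ras and to -0.13 and -0.05 in K-Ras Mll4-/-, so the groups did not overlap.

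K-Ras replicate 1 bore differently on the lists. Without it the alveolar mean log2 fold change was -0.84, with all 5 genes still below 0, while the adventitial mean was -0.27, and the difference between the lists widened from -0.43 to -0.57. Without K-Ras replicate 2 that difference was -0.31. Leaving out Pdgfra made it -0.34, leaving out Npnt -0.55, and leaving out Dcn and Lum -0.30. The filter of 1 CPM in 2 samples, which removed Wnt2, made it -0.31. Leaving out Lum and Pi16 together was not run, so how far the difference rests on them was not tested.

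**Figure D3:**
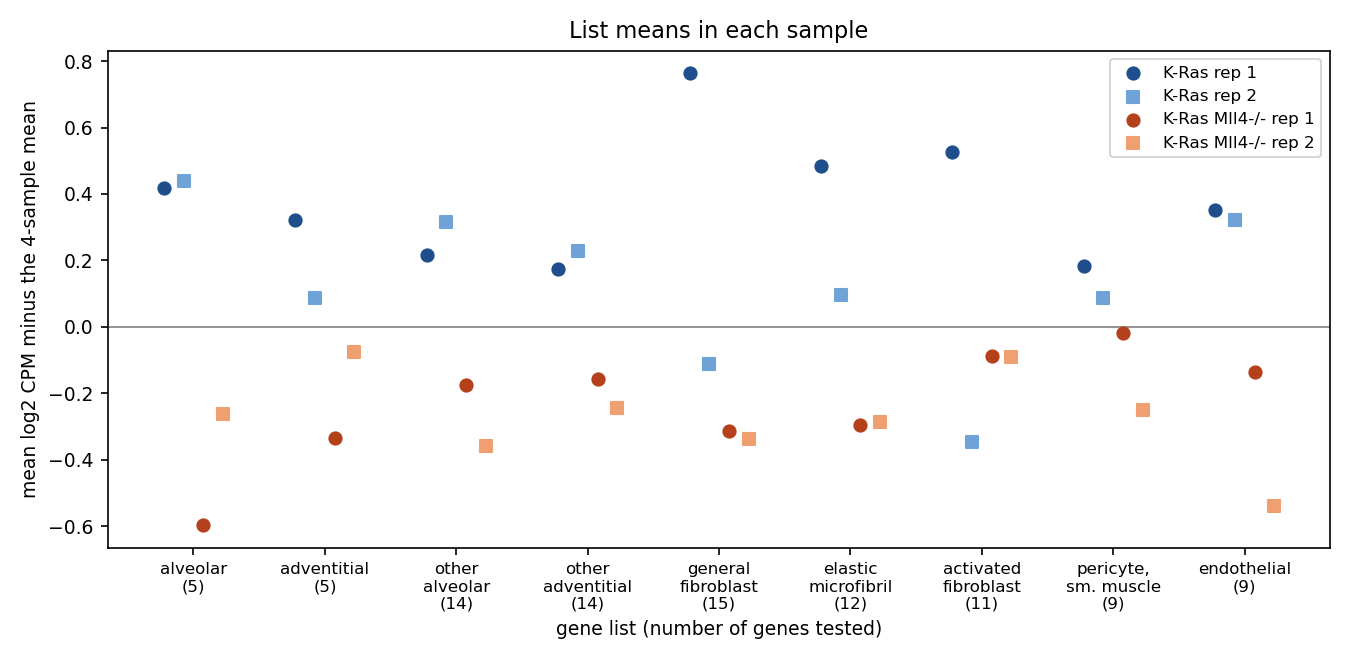
Mean log2 CPM of each gene list in each sample, minus the mean of the 4 samples, with the number of genes tested under each list name. The K-Ras samples lie close together for the alveolar genes, at 4.45 and 4.47 before centring, while K-Ras replicate 1 stands far above the other 3 samples for general fibroblast genes.

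Wider lists of each kind were read beside the members. The background for all list counts below is the share over all 16001 genes tested. The groups were apart lower for 28.5% and higher for 29.9% of them. At an unadjusted p under 0.05 by edgeR, 10.4% were lower and 11.4% higher. DESeq2 called 4.98% lower and 10.0% in either direction. Of 15 further alveolar fibroblast genes, 14 were tested and 0 were called by the edgeR quasi-likelihood test, and 8 had the groups apart lower and 1 higher. Their median log2 fold change was -0.63, and -0.70 without K-Ras replicate 1. At an unadjusted p under 0.05, 6 were lower and 1 higher, and DESeq2 called 2 lower. The most abundant were Limch1, a regulator of actomyosin, at 202 ± 29.4 CPM in K-Ras and 131 ± 24.7 in K-Ras Mll4-/-, then Enpep, an aminopeptidase, at 134 ± 59.2 and 63.5 ± 19.5. Ces1d, a carboxylesterase, was at 120.0 ± 62.3 and 51.2 ± 19.4 CPM, and Nebl, a nebulin-like actin-binding protein, at 42.4 ± 1.83 and 43.5 ± 0.723 CPM (SD, n = 2 each). Nebl showed no difference beyond its spread, and the edgeR adjusted p of these 4 genes ranged from 0.199 for Limch1 to 0.878 for Nebl.

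Of 15 further adventitial genes, 14 were tested, 0 were called, 7 had the groups apart lower and 1 higher, and the median log2 fold change was -0.61, which became -0.27 without K-Ras replicate 1. At an unadjusted p under 0.05, 1 was lower and 1 higher, and DESeq2 also called 1 in each direction. The 4 most abundant were Mgp, an inhibitor of calcification, Cd34, which endothelium also makes, Gsn, an actin-severing protein, and Fbn1, the microfibril protein fibrillin-1. Gsn was at 425 ± 14.8 CPM in K-Ras and 422 ± 1.42 in K-Ras Mll4-/-. Fbn1 was at 306 ± 158 and 161 ± 5.97 CPM, Mgp at 564 ± 201 and 375 ± 15.3, and Cd34 at 504 ± 196 and 386 ± 68.0 (SD, n = 2 each). For the last 3 the K-Ras spread was wide because replicate 1 was high. Further alveolar minus further adventitial genes differed by -0.13 between the groups in mean log2 CPM, in the same direction as the members but smaller than their -0.45 on that scale.

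General fibroblast genes, mainly collagens and their partners, were the broadest reading of fibroblast RNA. Of 15, all were tested, 0 were called, 13 had the groups apart lower and 1 higher, and 3 were lower at an unadjusted p under 0.05, with 3 called lower by DESeq2. The median log2 fold change of -0.83 became -0.27 without K-Ras replicate 1. Fn1, fibronectin, was at 1515 and 977 CPM in K-Ras and at 894 and 905 CPM in K-Ras Mll4-/-. Col3a1, a fibrillar collagen, was at 1025 and 457 CPM in K-Ras and at 364 and 348 CPM in K-Ras Mll4-/-. Sparc, a collagen-binding matrix protein, was at 1143 and 812 CPM in K-Ras and at 808 and 655 CPM in K-Ras Mll4-/-. For these 3 genes K-Ras replicate 2 was nearer to the K-Ras Mll4-/- samples than to K-Ras replicate 1. Col6a1, a chain of the beaded-filament collagen VI, was highest in K-Ras replicate 2 instead, at 342 and 399.6 CPM in K-Ras and at 290 and 263 CPM in K-Ras Mll4-/-. Its log2 fold change was -0.42 (SE 0.17, edgeR adjusted p = 0.238), and -0.53 without K-Ras replicate 1. Set against these genes within each sample, mean log2 CPM of the alveolar members minus that of general fibroblast genes was -3.70 and -2.80 in K-Ras and -3.64 and -3.27 in K-Ras Mll4-/-. For the adventitial members it was -3.93 and -3.29 in K-Ras and -3.51 and -3.22 in K-Ras Mll4-/-. The groups overlapped in both cases, so relative to general fibroblast RNA no difference beyond the spread was detectable with 2 samples each.

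Matrix families related to the members were read in the same way. Of 8 other small leucine-rich proteoglycans, the family of Dcn and Lum, 5 had the groups apart lower and 1 higher, with 0 called, 2 lower at an unadjusted p under 0.05, 0 by DESeq2, and a median log2 fold change of -0.52, or -0.29 without K-Ras replicate 1. Bgn, biglycan, was at 247 ± 54.4 CPM in K-Ras and 168 ± 31.9 in K-Ras Mll4-/-, Prelp at 67.3 ± 8.43 and 44.3 ± 1.99, Ogn, osteoglycin, at 18.5 ± 0.763 and 11.9 ± 0.560, and Fmod, fibromodulin, at 13.0 ± 9.16 and 7.23 ± 0.706 (SD, n = 2 each). Prelp and Ogn differed by more than their spread, at log2 fold changes of -0.60 (SE 0.15) and -0.64 (SE 0.16), with edgeR adjusted p of 0.165 and 0.170.

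Elastic fibre and microfibril genes, the partners of Mfap5, numbered 12, all tested, with 0 called, 8 apart lower and 2 higher. At an unadjusted p under 0.05, 5 were lower and 1 higher, and DESeq2 called 4 lower. The median log2 fold change was -0.85, and -0.44 without K-Ras replicate 1. Eln, elastin, was at 1165 and 614 CPM in K-Ras and at 394 and 341 CPM in K-Ras Mll4-/-. Its groups were well apart (log2 fold change -1.28, SE 0.36, edgeR adjusted p = 0.181), and the value was -0.74 without K-Ras replicate 1. Ltbp2, a TGF-beta binding protein relative, was at 482 ± 292 and 219 ± 2.45 CPM, and Ltbp4 at 195 ± 1.53 and 174 ± 34.2 (SD, n = 2 each), with overlap for Ltbp4 only among these 3.

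**Figure D4:**
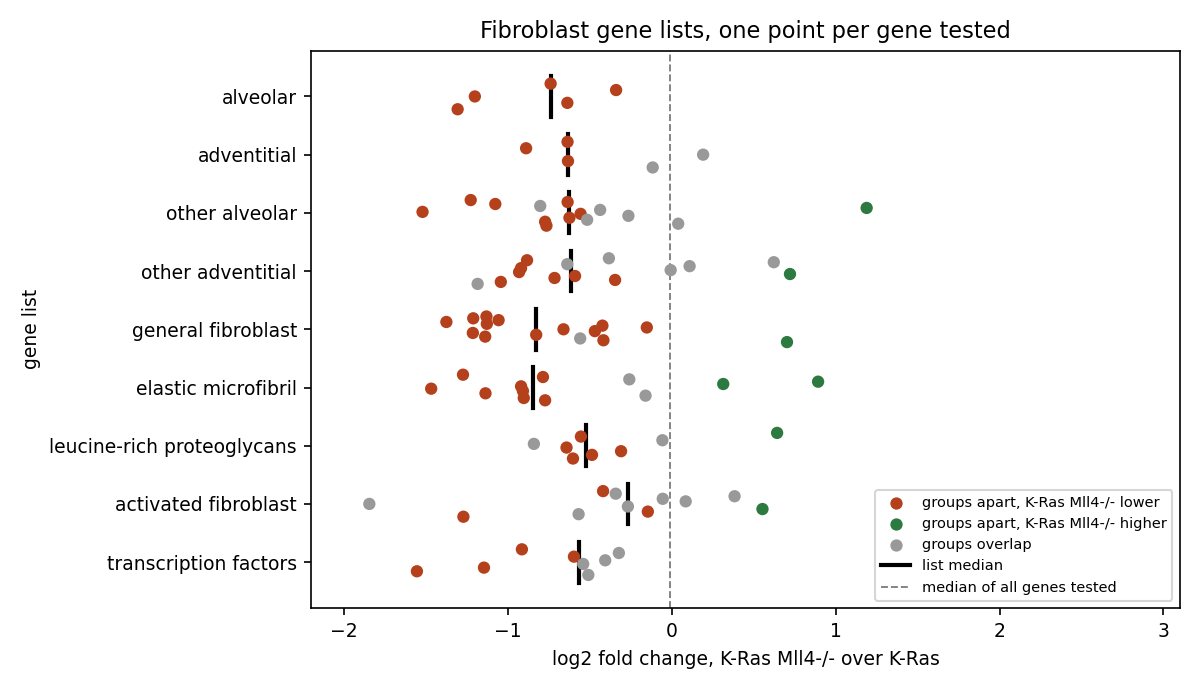
Log2 fold change of every tested gene in 9 fibroblast lists, coloured by whether the 2 groups were apart lower, apart higher or overlapped, with the list median as a black bar and the median of all 16001 genes dashed. List medians run from -0.85 for elastic microfibril genes to -0.27 for activated fibroblast genes.

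The ligands of the PDGF receptors were measured too. Pdgfa, the main ligand of Pdgfra in lung, was at 24.1 and 26.8 CPM in K-Ras and at 17.2 and 21.7 CPM in K-Ras Mll4-/- (log2 fold change -0.39, SE 0.18, edgeR adjusted p = 0.289). Pdgfb, which signals mainly to Pdgfrb on pericytes, was at 147 and 164 CPM in K-Ras and at 123 and 103 CPM in K-Ras Mll4-/- (log2 fold change -0.46, SE 0.16, edgeR adjusted p = 0.207). Both had the groups apart in the lower direction. Pdgfc, also a ligand of Pdgfra, was apart in the higher direction. It was at 3.89 and 2.96 CPM in K-Ras and at 7.16 and 7.07 CPM in K-Ras Mll4-/- (log2 fold change 1.05, SE 0.27, edgeR adjusted p = 0.171). Pdgfd was at 27.6 ± 2.68 and 26.1 ± 6.21 CPM and overlapped. Pdgfrb, the sister receptor, was at 148 and 71.0 CPM in K-Ras and at 79.0 and 69.9 CPM in K-Ras Mll4-/-, so K-Ras replicate 2 lay within the other group. Log2 Pdgfra minus log2 Pdgfrb was 0.40 and 1.11 in K-Ras and -0.02 and 0.08 in K-Ras Mll4-/-, with no overlap. Pdgfra minus Npnt was also apart. Against the collagen gene Col1a1, Pdgfra came to -1.33 and -0.23 in K-Ras and -0.92 and -1.11 in K-Ras Mll4-/-. Against the endothelial gene Cdh5 it came to -2.37 and -3.15 in K-Ras and -3.32 and -3.12 in K-Ras Mll4-/-. The groups overlapped in both cases, as they did for Inmt minus Dcn and Pi16 minus Dpt. Of the 5 ligand and receptor genes listed beside Pdgfra, 0 were called, 1 was lower (Pdgfb) and 1 higher (Pdgfc) at an unadjusted p under 0.05, and DESeq2 called 0.

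Other transcription factors of lung mesenchyme lay on the same side as Tcf21. Of 10 listed, 8 were tested and had log2 fold changes below 0, 4 with the groups apart, 0 called, 4 at an unadjusted p under 0.05 and 2 by DESeq2. The median was -0.57, and without K-Ras replicate 1 it was -0.22 with 5 of 8 below 0. Foxf1, a forkhead factor of lung mesenchyme and endothelium, was at 129 and 204 CPM in K-Ras and at 107 and 69.9 CPM in K-Ras Mll4-/- (log2 fold change -0.92, SE 0.32, edgeR adjusted p = 0.217). Zeb2, Nr2f2 and Meox1 had log2 fold changes of -0.51, -0.60 and -0.32, with the groups apart for Nr2f2 only.

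Genes of activated fibroblasts, the matrix-producing state found in scars and tumours, differed less. Of 12 listed, 11 were tested, 3 had the groups apart lower and 1 higher, 0 were called, and 0 were lower and 1 higher at an unadjusted p under 0.05, with 0 by DESeq2. Over all genes, 28.5% were apart lower and 29.9% higher, so the counts apart were near or below that background. The median log2 fold change was -0.27, and it turned to 0.17 without K-Ras replicate 1. Postn, periostin, was at 94.8 and 54.4 CPM in K-Ras and at 61.9 and 62.0 CPM in K-Ras Mll4-/-. Tnc, tenascin-C, was at 222 and 70.6 CPM in K-Ras and at 65.8 and 55.2 CPM in K-Ras Mll4-/-, and Col12a1 at 72.7 ± 30.6 and 57.3 ± 5.93 CPM. Runx1, a transcription factor that leukocytes and epithelium also make, lay the other way, at 116 ± 10.5 and 170 ± 12.3 CPM (SD, n = 2 each, log2 fold change 0.55, SE 0.14, edgeR adjusted p = 0.171).

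Markers of other cells in the suspension were read beside the members. Of the 9 endothelial markers, 7 had the groups apart lower, with 0 called, 7 lower at an unadjusted p under 0.05 and 7 by DESeq2, and their summed level was 6950.0 to 7182 CPM in K-Ras and 3548 to 4522 CPM in K-Ras Mll4-/-. The 9 pericyte and smooth muscle markers summed to 131 to 146 CPM in K-Ras and 113 to 136 CPM in K-Ras Mll4-/-, and 4 were apart lower and 1 higher. The 7 alveolar type 1 markers, cells that can also make Npnt, summed to 1656 to 2316 CPM in K-Ras and 1958 to 1959.6 CPM in K-Ras Mll4-/-. Of them, 2 were apart in each direction, near the 28.5% lower and 29.9% higher of all genes. The 7 alveolar type 2 markers summed to 14172 to 24065 CPM in K-Ras and 20534 to 21475 CPM in K-Ras Mll4-/-. The 7 leukocyte markers summed to 277 to 553 CPM in K-Ras and 292 to 481 CPM in K-Ras Mll4-/-. Airway markers were highest in K-Ras replicate 2, where the 6 ciliated markers summed to 592 CPM, against 98.0 CPM in K-Ras replicate 1. In K-Ras Mll4-/- they summed to 54.3 and 60.4 CPM. All 6 were apart lower, with 5 lower at an unadjusted p under 0.05 and 4 by DESeq2. The 5 club cell markers summed to 3757 CPM in K-Ras replicate 2 against 657 to 829 CPM in the other 3 samples, with 2 apart lower. Of 6 mesothelial markers, 4 were tested and 3 stayed under 1 CPM in every sample (Upk3b, Wt1 and Lrrn4). The summed level followed Msln alone, at 13.8 and 17.0 CPM in K-Ras and 120 and 221 CPM in K-Ras Mll4-/-. For Msln the log2 fold change was 3.47 (SE 0.36, edgeR adjusted p = 0.116), and DESeq2 called it higher (adjusted p = 9.5e-19). Of the 4 tested, 3 had log2 fold changes below 0. Upk1b was at 6.93 and 4.32 CPM in K-Ras and at 2.74 and 2.20 CPM in K-Ras Mll4-/-. Its groups were apart lower (log2 fold change -1.18, SE 0.36, edgeR adjusted p = 0.189), and Gpm6a overlapped. Schwann cell and cartilage markers summed to at most 8.14 CPM. The part of these cell types in the member values was not tested.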

How the data were processed

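The authors deposited whole-number counts for each gene symbol, unnormalised, in a file of HTSeq layout for each sample. Per the submitters' processing notes, CASAVA 1.4, STAR, HTSeq and build mm9 were used. Other versions, the annotation and the strand setting are not given in the sources used here. The 5 closing tally lines, which name no gene, held 60.1% to 65.6% of the reads in each file and were left out. Reads aligned to more than 1 place are among them. The reference here is GRCm38, so the only coordinates given are those of the 3 RefSeq promoter stretches, which were matched by symbol.

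Groups and replicate numbers came from the titles. All 161 listed symbols were matched to the files. Counts were filtered with filterByExpr (minimum count 10), TMM-scaled and fitted for all genes with the robust quasi-likelihood test of edgeR 4.0.16 in R 4.3.3, with Benjamini-Hochberg adjustment over 16001 genes. The SE is the log2 fold change over the square root of F. Log2 CPM used a prior count of 0.5. The fits were tested on simulated counts. DESeq2 1.42.0, limma 3.58.1 (voom), other scalings and filters, a replicate block and leaving out each sample were alternatives. Offsets for GC content and length (mgcv 1.9.3) and the list values without K-Ras replicate 1 were chosen after seeing the data. The named genes were all members, Kmt2d and, in each companion list, the 4 with the highest mean CPM and any gene called. Itga8, Sftpc, Col1a1, Cdh5, Msln, Upk1b, Gpm6a, Upk3b, Wt1, Lrrn4 and the genes of the closing observations were named outside that rule, after their values were seen. The members and lists were chosen with earlier results of these data known.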

Additional observations from a re-analysis of the deposited data

How the results depend on the processing

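Against 6 genes called over the whole table, the edgeR quasi-likelihood test called 44 with no count filter, DESeq2 called 1601, the likelihood ratio test 1503 and limma-voom 0 (3228 at an unadjusted p under 0.05). Leaving out 1 sample gave 0 to 524 calls, 524 without K-Ras replicate 1 and 0 without any other sample. Replicate numbers 1 and 2 recur in the groups, no label says what they share, and deviations of same-numbered samples correlated at 0.20 across genes. The replicate block gave 217 calls, Pdgfra among them (adjusted p = 0.0465), and adding offsets for GC and length left 135, without Pdgfra (adjusted p = 0.0613). With each sample left out, the alveolar mean log2 fold change ranged from -1.06 to -0.71, the adventitial mean from -0.58 to -0.27 and their difference from -0.57 to -0.31. Over the other alternatives these ranged from -0.97 to -0.75, from -0.55 to -0.40 and from -0.55 to -0.30. The filter of 1 CPM in 2 samples removed Wnt2. Signs turned for Lum (-0.13 without K-Ras replicate 1, range -0.13 to 0.59) and Pi16 (0.25 without K-Ras Mll4-/- replicate 1, range -0.63 to 0.25), and the cause was not tested. A lone sample left in a group is assumed to vary like the other group. Depth limits Wnt2 and Tcf21, with 7 to 37 and 36 to 117 reads, more than the other members.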

Other observations

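Some genes of the fibroblast lists stood on the other side from the members, with both K-Ras Mll4-/- samples above both K-Ras samples, and they were picked out after their values were seen. Il33, an alarmin cytokine of adventitial fibroblasts that lung epithelium also makes, was at 106 and 124 CPM in K-Ras and at 203 and 175 CPM in K-Ras Mll4-/- (log2 fold change 0.72, SE 0.16, edgeR adjusted p = 0.157). Pdgfc, another ligand of Pdgfra, was at 3.89 and 2.96 CPM in K-Ras and at 7.16 and 7.07 CPM in K-Ras Mll4-/- (log2 fold change 1.05, SE 0.27, edgeR adjusted p = 0.171). Fbln2, the matrix protein fibulin-2, was at 55.0 and 46.9 CPM against 70.3 and 119 CPM (log2 fold change 0.89, SE 0.29, edgeR adjusted p = 0.201). Fgfr4, a fibroblast growth factor receptor, was at 2.78 and 1.85 CPM against 4.34 and 6.21 CPM (log2 fold change 1.19, SE 0.37, edgeR adjusted p = 0.192). Il33 was called higher by DESeq2 (adjusted p = 0.0143), and the other 3 were not.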
